A study of Mus musculus with 4 samples.

Results

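The genes described here encode the machinery that takes receptors into the cell, carries them through endosomes, and anchors the actin cytoskeleton at sites of adhesion. They were a list of 37 genes, chosen by name because CD13 takes part in receptor uptake and adhesion. No probe carried the symbols Actg1, Arpc3 or Ptk2, which are not analysed here. For Dnm2, Rab4a and Rhoa no probe was above background on enough arrays, which left 31 measured genes of the 10335 genes and unnamed probes tested in all. None of the 31 was detected in a single group alone. A probe was kept when its detection p-value was under 0.01 on at least 2 of the 4 arrays, and the kept probe with the highest mean signal stood for its gene.

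Total RNA came from resting peritoneal macrophages of wild type mice (WT, 2 arrays) and CD13 knockout mice (KO, 2 arrays), both labelled C57BL/6, and was read on Illumina MouseWG-6 v2.0 BeadChips. CD13 is a cell-surface aminopeptidase encoded by Anpep. How the knockout allele was made, the age and sex of the mice, and the number of mice behind an array are not given in the sources used here. The p-values below therefore measure only the spread between these arrays, which may be technical. Because the text of the series also mentions cells grown from bone marrow, the peritoneal source rests on the array labels. Pairs of values are given throughout in the order array 1, array 2.

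Median raw intensity was 109 to 167.1 over the 4 arrays, and 13659 to 14823 of 45281 probes were above background, with the lowest of both on knockout array 2. Anpep was lower in the knockout (log2 change -2.41 ± 0.18 SE, n = 2 arrays per group, limma adjusted p = 0.0261), though its adjusted p was 0.123 to 0.173 when any single array was left out and 0.0551 with no filter on dim probes. The Anpep probe stayed above background in the knockout, with raw intensities of 16773.6 and 11192.5 in wild type against 2102.2 and 1521.6 in knockout. All 7 macrophage markers with a probe were detected, among them Adgre1 (F4/80), Csf1r, Mertk and Lyz2. Adgre1 (log2 change -0.51 ± 0.20 SE), Csf1r (-0.40 ± 0.17), Cd14 (-0.18 ± 0.17) and Lyz2 (-0.07 ± 0.17) were lower in the knockout without overlap. Mertk (0.27 ± 0.21) and Fcgr1 (0.36 ± 0.36) had higher means there, with overlapping groups. None of the T and NK cell (7 with a probe), eosinophil (4) or mesothelial (7) markers was above background, and 1 of 9 fibroblast and endothelial markers, Dcn, was. B cell markers were detected for 2 of 4 genes with a probe, neutrophil markers for 3 of 7, mast cell markers for 4 of 7 and dendritic cell markers for 2 of 6. Of all the marker genes measured, 0 passed the test. For several the groups did not overlap, as was so for 39.9% of all genes. Itgam (CD11b) was at -1.59 ± 0.19 (log2 change, SE, limma adjusted p = 0.145), the B cell markers Ms4a1 and Cd79b at -1.23 ± 0.30 and -1.02 ± 0.40, and the neutrophil marker Ltf at 2.00 ± 0.45 (adjusted p of 0.312 to 0.531 in limma). The other detected neutrophil markers, S100a8 (0.49 ± 0.45 SE) and S100a9 (-0.02 ± 0.97 SE), overlapped between the groups. The part of such cells in the values below was not tested.

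In clathrin-mediated uptake, a coat of clathrin heavy and light chains is joined to the membrane and to cargo by the adaptor AP-2, and dynamin cuts the vesicle free. Rab GTPases then steer the vesicle through early, recycling and late endosomes. Actin filaments are nucleated by the Arp2/3 complex, which is switched on by WASP family proteins downstream of Cdc42 and Rac1. Focal adhesions tie these filaments to integrins through talin and vinculin, and the kinases FAK, Pyk2 and Src signal from them. In macrophages the same components serve phagocytosis and migration.

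None of the 31 genes passed the test between knockout and wild type. By limma with Benjamini-Hochberg adjustment over all genes, 0 of 31 had an adjusted p under 0.05, where 0.0968% of all genes tested did, and the smallest adjusted p was 0.686. At an unadjusted p under 0.05 there were also 0 of 31, where 9.35% of all genes were. The mean was lower in the knockout for 15 genes and higher for 16, and 48.3% of all genes were lower. The median log2 change of the 31 genes was 0.0025, against 0.0115 over all genes.

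The median absolute log2 change of the 31 genes was 0.12, against 0.18 over all genes. The gap between the wild type arrays exceeded the change for 19 of 31 genes (53.6% of all genes) and the gap between the knockout arrays did for 21 (56.2% of all genes). Of the 31 genes, 12 had a mean difference under 0.1 on the log2 scale (29.1% of all genes), and 5 had one over 0.3 (29.9% of all genes), namely Ap2a1, Cav1, Pxn, Src and Tln1. All arrays of one genotype lay above all arrays of the other for 10 of 31 genes, where they did so for 39.9% of all genes. For 5 genes the difference between group means was larger than the gap between the arrays of either group (27.1% of all genes). These were Cltb, Rab5a, Rab5c, Vav1 and Pfn1, whose changes lay between -0.12 and 0.25.

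For most of these genes the probe that stood for the gene set a bound on a change. The 95% moderated confidence interval of the log2 change, not adjusted for the number of genes, lay inside a 2-fold change in either direction for 28 of 31 genes, where it did for 78.3% of all genes. The 3 exceptions were Ap2a1, Cav1 and Src. When every kept probe was tested on its own, dimmer probes of Actb and Rab7 had intervals that reached past 2-fold. These ran from 0.49 to 3.05 and from 0.19 to 3.10 for Actb, and from 0.21 to 1.17 for Rab7. The bound therefore holds for the probe that stood for each gene. For 15 of 31 genes (48.4%) the interval lay inside a 1.5-fold change, against 25% of all genes. These p-values therefore do not show that the genes were equal in both groups, and for 16 genes a change of 1.5-fold lay within the interval.

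**Figure D1:**
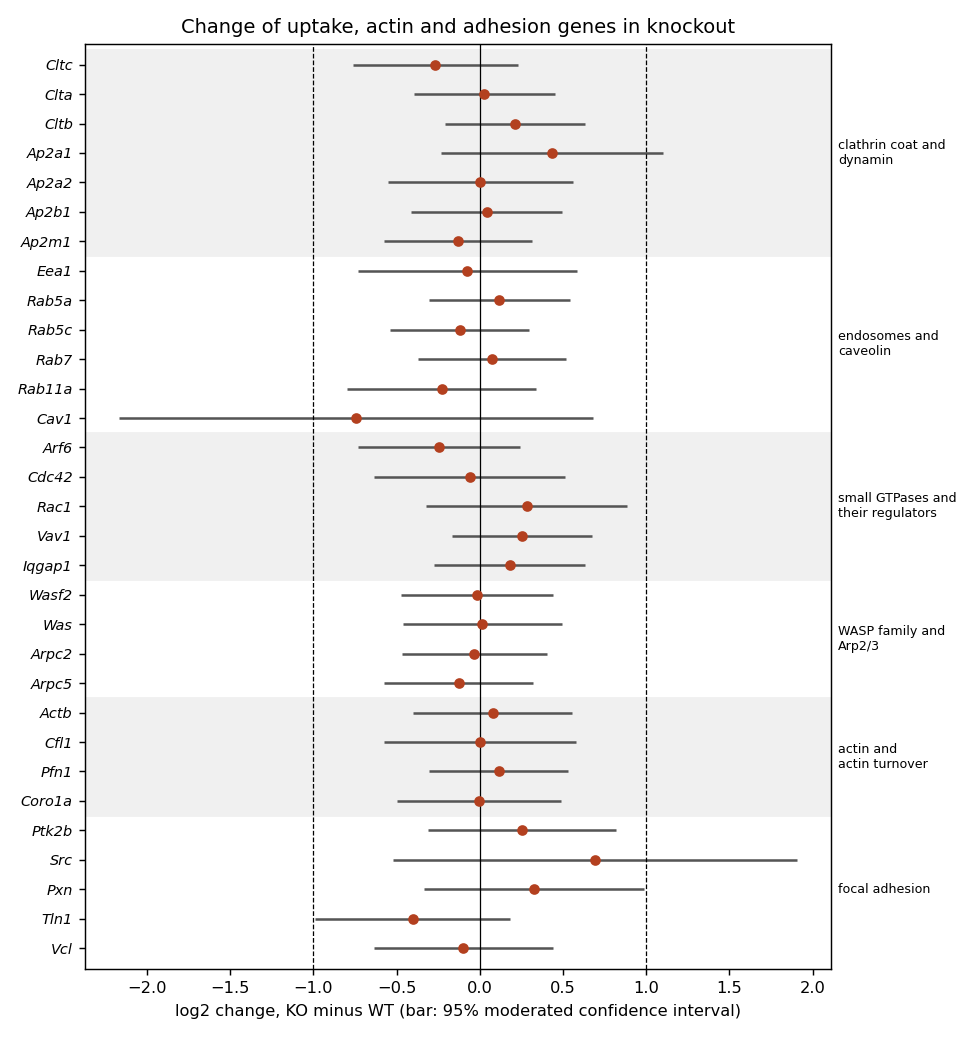
Log2 change, knockout minus wild type, of the 31 measured genes by role (points), with the 95% moderated confidence interval as bars and dashed lines at a 2-fold change. Every interval crosses 0, and those of Ap2a1, Cav1 and Src reach past a 2-fold change.

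**Figure D2:**
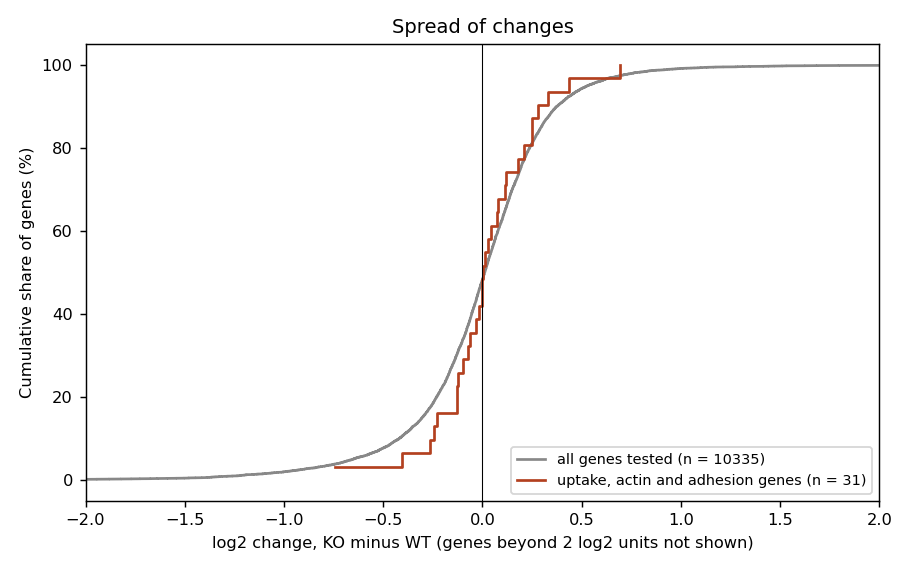
Cumulative share of genes (vertical axis, percent) by log2 change, knockout minus wild type (horizontal axis), for the 31 measured genes and for all 10335 genes and unnamed probes tested, without those beyond 2 log2 units. Both curves are centred near 0, with medians of 0.0025 and 0.0115.

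Among the clathrin coat genes, those of the heavy chain and both light chains and 4 AP-2 genes were measured, and none passed. The median log2 change of these 7 genes was 0.03, with 5 higher and 2 lower, and it was -0.12 over the mean of the kept probes and -0.04 without knockout array 1. Cltc, the clathrin heavy chain, had log2 intensities of 9.56 and 9.55 in wild type against 9.47 and 9.11 in knockout. Both knockout arrays were below both wild type arrays, but the knockout arrays differed from each other by more than the group means did (log2 change -0.27 ± 0.20 SE, limma adjusted p = 0.756). The light chain Clta read 13.78 and 13.80 in wild type against 13.78 and 13.86 in knockout, with overlapping groups and a change of 0.03 ± 0.17 (SE). The other light chain, Cltb, read 9.09 and 9.05 in wild type against 9.31 and 9.25 in knockout. Its groups did not overlap and each pair of arrays was close, yet the change of 0.21 ± 0.17 (SE) did not pass (limma adjusted p = 0.776).

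AP-2 is built of a pair of large chains, a medium chain and a small chain. Ap2a1, which encodes a form of the large alpha chain, read 9.16 and 9.04 in wild type against 9.19 and 9.88 in knockout. Knockout array 1 lay next to the wild type arrays and knockout array 2 stood above them (log2 change 0.43 ± 0.27 SE, limma adjusted p = 0.706), so that the change was 0.09 without knockout array 2 and 0.78 without knockout array 1. Ap2a2, the other alpha chain gene, read 10.69 and 10.21 in wild type against 10.50 and 10.41 in knockout. Its knockout values fell between those of wild type, for a change of 0.0025 with a 95% interval of -0.55 to 0.56. Ap2b1, the beta chain, read 10.85 and 10.93 in wild type against 11.05 and 10.82 in knockout, a spread that covered the wild type arrays. Ap2m1, the medium chain that binds cargo motifs, had a change of -0.13 ± 0.18 (SE). Dnm2 encodes the dynamin of non-neuronal cells. Its single probe had detection p-values of 0.42 and 0.734 in wild type against 0.14 and 0.521 in knockout, so no level or change of Dnm2 was obtained.

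Of 7 endosomal and caveolar genes 6 were measured, and their median log2 change was -0.10, with 2 higher and 4 lower. That median was 0.06 without knockout array 2, 0.00 on leaving out wild type array 2 and -0.26 on leaving out knockout array 1. Rab5a and Rab5c, GTPases of the early endosome, had log2 changes of 0.12 ± 0.17 and -0.12 ± 0.17 (SE), and neither passed. Eea1, a tether that binds Rab5 on early endosomes, had a change of -0.08 ± 0.26 (SE). Rab7, the GTPase of late endosomes, read 13.85 and 13.77 in wild type against 13.98 and 13.79 in knockout. Its groups overlapped, with a change of 0.07 ± 0.18 (SE). Rab11a, of recycling endosomes, read 8.70 and 8.83 in wild type against 8.78 and 8.29 in knockout. Only knockout array 2 was low, and the change of -0.23 ± 0.23 (SE) was 0.02 without that array. Rab4a, a GTPase of fast recycling, had 1 probe, with detection p-values of 0.168 and 0.384 in wild type against 0.0684 and 0.139 in knockout.

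Cav1, which encodes caveolin-1, the coat protein of caveolae, had the widest gap between replicate arrays of the 31 genes. Raw intensities were 1446 and 3282.9 in wild type against 1243.1 and 642.1 in knockout, all above background. The normalised log2 values were 9.89 and 11.60 in wild type against 10.32 and 9.69 in knockout. Wild type array 2 stood apart from the other 3, and wild type array 1 lay between the knockout arrays. The gap of 1.71 between the wild type arrays was exceeded by 0.513% of all genes. The log2 change of -0.74 ± 0.57 (SE, limma adjusted p = 0.763) was -1.60 on leaving out wild type array 1, and it was 0.11 on leaving out wild type array 2. Dcn, the 1 detected marker of 9 on the fibroblast and endothelial list, read 8.35 and 10.09 in wild type against 9.19 and 7.64 in knockout. The mast cell marker Hdc read 10.49 and 11.24 in wild type against 10.80 and 9.86 in knockout, and the dendritic cell marker Cd209a 8.13 and 8.95 against 8.27 and 6.95. Wild type array 2 was highest and knockout array 2 lowest for Cav1 and for each of these 3 markers. The other detected markers of the mast cell and dendritic cell lists did not share that order. Cma1 and Cpa3 were lowest on knockout array 1 (5.80 and 5.98), and Kit was highest on knockout array 2 (6.76). Ccr7 read 7.29 and 7.76 in knockout, so knockout array 2 was not its lowest. The other 8 fibroblast and endothelial markers, among them Col1a1, Col1a2, Pdgfra and Pecam1, were not above background. In bulk RNA, fewer cells of a type and less RNA per cell cannot be told apart, and the part of such cells in the Cav1 values was not tested.

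**Figure D3:**
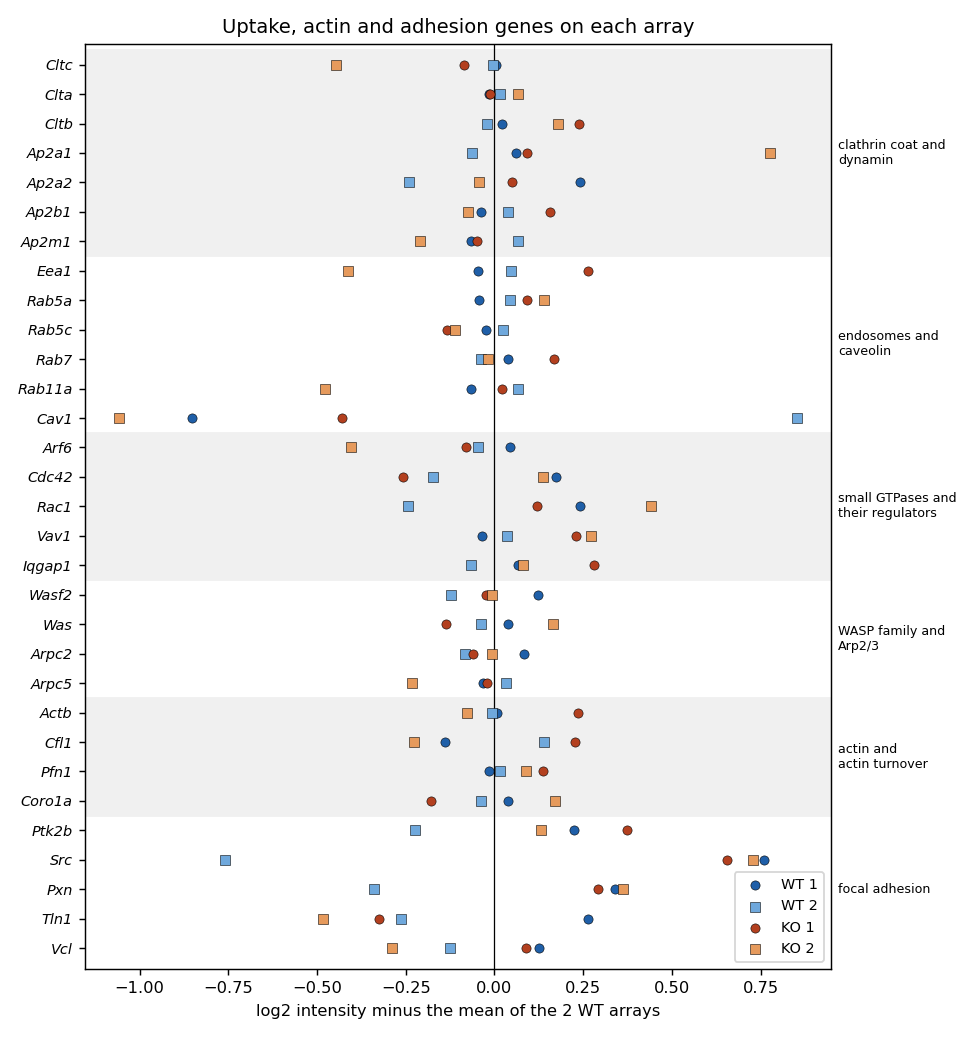
Log2 intensity of each measured gene on each of the 4 arrays, relative to the mean of its 2 wild type arrays (horizontal axis), with genes on the vertical axis grouped by role. Most points lie within 0.5 of 0. The 2 wild type points of a gene lie equally far on either side of 0, and they are widest apart for Cav1 and Src. Wild type array 2 is the highest array for Cav1 and the lowest for Src and Pxn, and knockout array 2 stands high for Ap2a1.

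Of the small GTPases and their regulators, 5 of 6 were measured, with a median log2 change of 0.18 and 3 higher. That median was 0.04 without wild type array 2, 0.04 over the mean of the kept probes and -0.06 with the dimmest kept probe of each gene. Vav1, a blood-cell exchange factor that activates Rac, read 11.81 and 11.88 in wild type against 12.08 and 12.12 in knockout. The groups did not overlap and replicate arrays were close, but the change of 0.25 ± 0.17 (SE) did not pass (limma adjusted p = 0.724). Arf6, a GTPase of membrane recycling and ruffling, read 11.63 and 11.54 in wild type against 11.51 and 11.18 in knockout. Both knockout arrays were lower, with a change of -0.24 ± 0.20 (SE) that the gap between the knockout arrays exceeded. Cdc42, which acts on WASP at filopodia and phagocytic cups, read 11.57 and 11.22 in wild type against 11.13 and 11.53 in knockout, so the groups overlapped. Rac1, which drives lamellipodia, had a change of 0.28 ± 0.24 (SE), with wild type array 2 the lowest and knockout array 2 the highest array. The single probe of Rhoa, the GTPase of contractile actin bundles, was not above background on any array (detection p-values of 0.545 to 0.767).

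Iqgap1 encodes a scaffold that binds Cdc42, Rac1 and actin. In assembly GRCm38.p6 it lies on the chromosome of Anpep, 0.863 Mb from that gene. Iqgap1 read 14.64 and 14.50 in wild type against 14.85 and 14.65 in knockout. The groups did not overlap by a small margin, with a change of 0.18 ± 0.18 (SE, limma adjusted p = 0.827). Its 4 detected probes gave changes of -0.10 to 0.18. Ap2a1, Ap2a2 and Coro1a lie farther away on the same chromosome.

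On the probes that stood for them, the WASP family and Arp2/3 genes were close between the groups. The log2 changes of Wasf2, Was, Arpc2 and Arpc5 lay between -0.13 and 0.01, and for 0 of 4 did the groups separate (39.9% of all genes). Their median of -0.02 was 0.05 on leaving out wild type array 1 and -0.11 on leaving out the other wild type array. Was, the blood-cell activator of Arp2/3, read 11.60 and 11.52 in wild type against 11.42 and 11.72 in knockout. The wild type arrays fell between the knockout arrays. Wasf2, a WAVE protein downstream of Rac1, had a change of -0.02 ± 0.18 (SE). Its other kept probe, which was dimmer, read 9.52 and 9.42 in wild type against 8.99 and 9.09 in knockout. On that probe the groups did not overlap, with a change of -0.43 ± 0.18 (SE, limma adjusted p = 0.562). Arpc2, a core subunit of the Arp2/3 complex, read 13.28 and 13.12 in wild type against 13.14 and 13.19 in knockout, with the knockout arrays inside the wild type range. Arpc5, a further subunit, read 15.26 and 15.33 in wild type against 15.27 and 15.06 in knockout, where only knockout array 2 was low (change -0.13 ± 0.18 SE).

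Actin itself and the proteins that turn it over were measured for 4 of 5 genes, with a median log2 change of 0.04, 2 higher and 2 lower. That median was 0.01 to 0.18 without single arrays, the highest without knockout array 2. Actb, cytoplasmic beta-actin, had raw intensities of 62961.9 and 46560.8 in wild type against 55271.1 and 40004.6 in knockout. Among all 45281 probes it ranked between position 2 and position 30 by raw signal on the 4 arrays, so its level was read near the top of the range of each array. After normalisation it read 15.60 and 15.59 in wild type against 15.83 and 15.52 in knockout, with overlapping groups and a change of 0.08 ± 0.19 (SE). Pfn1, profilin, which loads actin monomers for assembly, read 12.91 and 12.95 in wild type against 13.07 and 13.02 in knockout. Its groups did not overlap, with a change of 0.11 ± 0.17 (SE, limma adjusted p = 0.888). Cfl1, cofilin, which severs filaments, read 10.65 and 10.93 in wild type against 11.02 and 10.57 in knockout. The group means were equal to 3 decimals, and the 95% interval ran from -0.58 to 0.58. Coro1a, a coronin of blood cells that binds filaments, read 13.00 and 12.93 in wild type against 12.79 and 13.14 in knockout, so that the wild type arrays fell inside the knockout range.

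The focal adhesion genes held 3 of the 5 differences over 0.3, and none passed. Of 6 genes 5 were measured, and their median log2 change was 0.25, with 3 higher and 2 lower. That median was -0.07 without wild type array 2, 0.48 on leaving out wild type array 1, 0.13 on leaving out knockout array 1 and 0.08 over the probes detected on all 4 arrays. Tln1, talin, which links integrins to actin, read 9.29 and 8.76 in wild type against 8.70 and 8.54 in knockout. Both knockout arrays were below wild type, with a change of -0.40 ± 0.23 (SE) and the smallest adjusted p of the 31 genes (limma, 0.686). The change was -0.14 on leaving out wild type array 1 and -0.67 on leaving out the other wild type array. Src, the adhesion tyrosine kinase, had raw intensities of 421 and 171.4 in wild type against 270.1 and 220.8 in knockout, and was above background on 1 of 2 wild type arrays and on both knockout arrays. Its log2 values were 7.71 and 6.19 in wild type against 7.60 and 7.68 in knockout. Only wild type array 2 was low, and the change of 0.69 ± 0.49 (SE, limma adjusted p = 0.737) became -0.07 without that array and 1.45 without wild type array 1. Pxn, the adhesion scaffold paxillin, showed the same pattern, with 10.12 and 9.44 in wild type against 10.07 and 10.14 in knockout. Its change of 0.33 ± 0.26 (SE) was -0.01 on leaving out wild type array 2 and 0.67 on leaving out the other wild type array. Ptk2b, which encodes Pyk2, the relative of FAK found in macrophages, had a change of 0.25 ± 0.23 (SE). Vcl, vinculin, which reinforces the link from talin to actin, read 13.34 and 13.09 in wild type against 13.30 and 12.93 in knockout. Array 1 was above array 2 in each group, and the change was -0.10 ± 0.22 (SE).

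**Figure D4:**
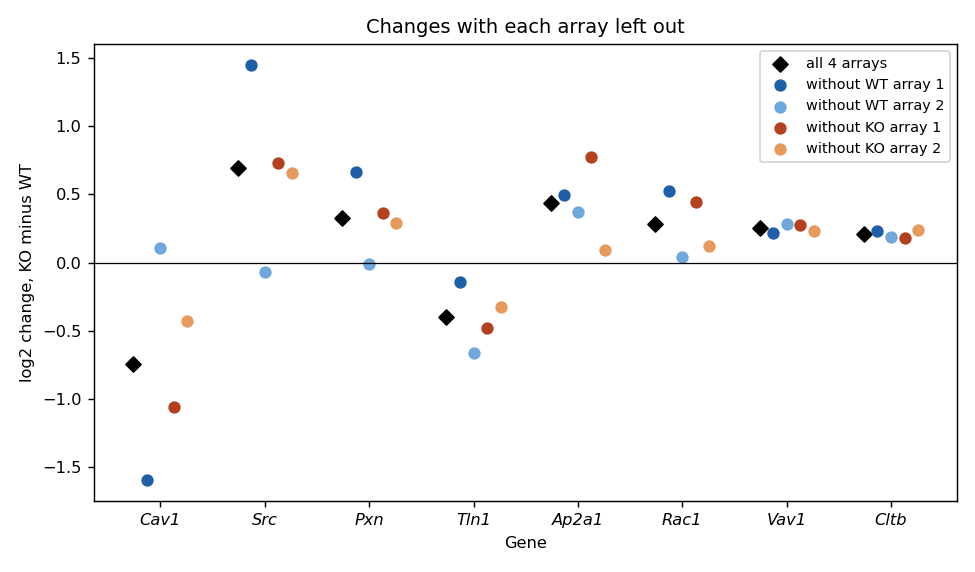
Log2 change, knockout minus wild type, of 8 genes over all 4 arrays (diamonds) and with each array left out in turn (circles). Cav1, Src and Pxn change sign without wild type array 2, Ap2a1 is near 0 without knockout array 2, and Vav1 and Cltb stay between 0.18 and 0.30.

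Actin and vinculin are textbook targets of serum response factor, which binds the CArG box and is switched on when free actin monomers run low. The RefSeq promoter table of build GRCm38.p6 (250 bases before to 50 after each gene start) held 30 of the 37 genes, 26 of them measured. The CArG consensus, a palindrome that reads alike on both strands and the single motif searched, was found for 3 of the 30, and in 1.63% of all 32851 promoters in the table. The hits were Vcl, Rab11a and the unmeasured Actg1, and the measured pair is shown with the box in capitals. Neither change given above (Vcl -0.10, Rab11a -0.23) passed, and the part of serum response factor in them was not tested. The Vcl stretch is at chr14:20929148-20929210 on the plus strand and the Rab11a stretch at chr9:64737871-64737940 on the minus strand. A match describes letters in this window and is not evidence of binding.
Vcl: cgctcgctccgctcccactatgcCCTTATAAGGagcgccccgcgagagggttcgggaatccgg
Rab11a: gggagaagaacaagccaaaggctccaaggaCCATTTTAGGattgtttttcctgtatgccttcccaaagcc

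For 12 of the 31 genes more than 1 probe was kept, and these did not always give the same answer. Over 56 kept probes, each tested on its own among 14881, 0 passed (0.0941% of all kept probes did) and 4 had an unadjusted p under 0.05 (9.07% of all kept probes did). In 7 of the 12 genes, probes gave changes of both signs, and the median spread between probes of a gene was 0.37 on the log2 scale. Actb spread the most. Its 3 bright probes gave changes of 0.08, -0.11 and 0.30. The probe ILMN_2846865 had raw intensities of 868.4 and 303.2 in wild type against 841.6 and 1100.9 in knockout, and a change of 1.77 ± 0.52 (SE, limma adjusted p = 0.414). The probe ILMN_2588055 read 738.8 and 252.5 in wild type against 580.7 and 891.2 in knockout, for a change of 1.65 ± 0.59 (SE, limma adjusted p = 0.503). On both of these dim probes wild type array 2 was lowest and knockout array 2 highest, an order that the 3 bright probes did not share.

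The other probes under that unadjusted threshold belonged to Rab7 and Cltc. The 3 kept probes of Rab7 gave changes of 0.07, 0.36 and 0.69, all upward, with the largest on its dimmest kept probe (± 0.19 SE, limma adjusted p = 0.397). Those of Cltc disagreed in sign, with -0.27, 0.24 and -0.49, the last from its dimmest kept probe (± 0.19 SE, limma adjusted p = 0.549). The 4 probes of Coro1a ran from -0.0044 on the brightest to 0.43, and those of Ap2b1 from 0.04 on the brightest to -0.27. Clta ranged from -0.43 to 0.03, and the Arpc5 pair read -0.13 and 0.10. The Wasf2 pair read -0.02 and -0.43, and the 3 probes of Rab5a read 0.12, 0.13 and 0.44. Probes of Ap2a1 (0.43 and 0.49) and Pfn1 (0.11 and 0.04) were close to each other. Some genes had several probes of which only 1 was kept, namely Pxn (of 5), Cdc42 (of 4), Src and Eea1 (of 3) and Ptk2b (of 2). Their remaining probes were not above background on any array.

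**Figure D5:**
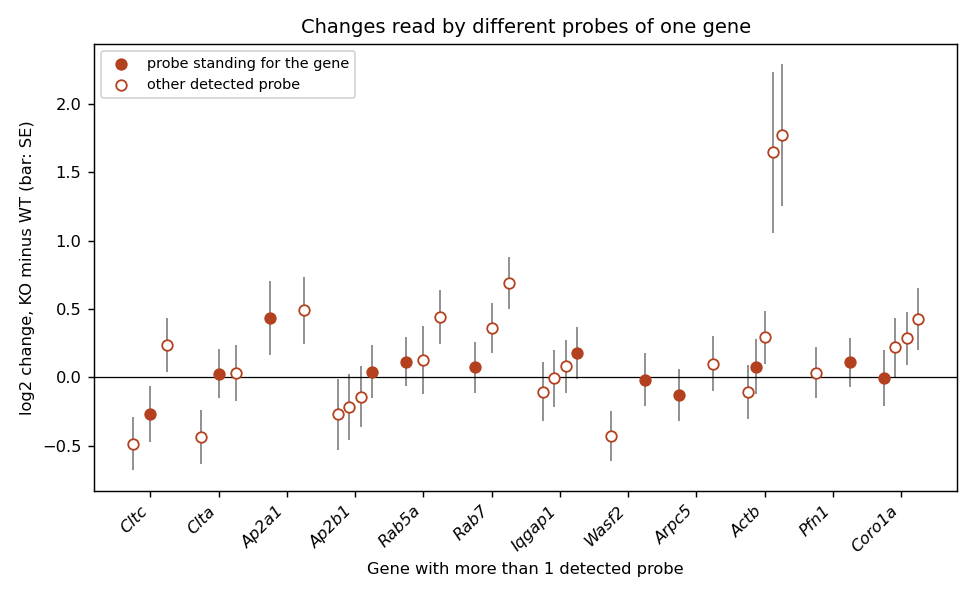
Log2 change, knockout minus wild type, with SE, for every kept probe of the 12 genes with more than 1 kept probe (filled: the probe that stands for the gene). Probes of Actb run from -0.11 to 1.77, and those of the other 11 genes stay between -0.49 and 0.69.

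For the 31 genes the median gap between arrays of a group was 0.12 in wild type and 0.21 in knockout on the log2 scale, against 0.21 and 0.23 over all genes. Wild type array 2 was the lowest of the 4 arrays for 11 genes and knockout array 2 for 12, while wild type array 1 and knockout array 1 were each lowest for 4. Over all genes those shares were 26.8%, 27.2%, 23% and 23%.

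Further genes of the same machinery, 227 in all and listed by the same 6 roles, were read in the same fit. Of these, 19 had no probe with the symbol, 40 were not above background and 168 were measured. None of the 168 passed, their median log2 change was 0.01, and 12 had an unadjusted p under 0.05 (7.14%, against 9.35% of all genes), 7 higher and 5 lower. Among the 7, Ssh1 was detected in the knockout group alone, and without the 3 genes detected in a single group 11 of 165 remained (6.67%, against 8.03% of all genes so limited). The values that follow are those of the smallest unadjusted p in each role group, and none of them passed.

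Among 21 measured clathrin accessory genes these were Epn1 (log2 change 1.19 ± 0.31 SE), an epsin that bends membrane, the cargo adaptor Dab2 (-0.39 ± 0.21) and Hip1 (-0.30 ± 0.25), which joins clathrin to actin. Epn1 had raw intensities of 268.5 and 151.8 in wild type against 253.2 and 195.7 in knockout, and it was not above background on wild type array 2. Among 31 endosome and caveola genes they were Ehd4 (0.50 ± 0.17), a recycling ATPase, Rilp (0.66 ± 0.25), which couples Rab7 to dynein, and Stam (0.56 ± 0.23), which sorts ubiquitinated cargo. Ehd4 read 12.93 and 12.84 in wild type against 13.39 and 13.38 in knockout, with close replicates (limma adjusted p = 0.481). Its groups did not overlap, as was so for 51.6% of the genes measured on this list and 39.9% of all genes. Among 34 further GTPases and regulators they were Elmo2 (-0.68 ± 0.21), a partner of Dock proteins in Rac activation, Git1 (0.60 ± 0.25), an Arf GTPase-activating scaffold, and Tiam1 (-0.36 ± 0.18), a Rac exchange factor. All of these errors are SE.

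Among 15 further WASP and Arp2/3 genes, Gmfg, which removes branches made by Arp2/3, had a log2 change of -0.76 ± 0.25 (SE). The WAVE complex subunits Abi1 and Brk1 had -0.39 ± 0.19 and 0.29 ± 0.17. Among 43 further actin genes, Marcksl1, a membrane-bound actin regulator, had -0.74 ± 0.19 and the monomer-binding thymosin Tmsb10 had 0.74 ± 0.22. Tmsb10 read 14.63 and 14.16 in wild type against 15.12 and 15.16 in knockout, so both knockout arrays were higher (limma adjusted p = 0.411). Ssh1, a phosphatase that activates cofilin, narrowly missed the detection cut on both wild type arrays (detection p of 0.0107 on each). On the knockout arrays it was above background (0.00214 and 0.00107). Raw intensities were 236 and 178.3 in wild type against 199.4 and 179.5 in knockout. With wild type values set no lower than the dimmest detected probe of their array, the knockout mean was 1.6-fold higher. That fold is an estimate and not a bound. Ssh1 was kept only through the group in which it was high, so no test is given for it. Among 24 further adhesion genes, the phosphatase Ptpn12 had -0.45 ± 0.17, the alpha-actinin partner Pdlim1 had -0.65 ± 0.27 and the Cas family scaffold Cass4 had 0.75 ± 0.32. For the 17 named genes other than Ssh1, the limma adjusted p lay between 0.366 and 0.783.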

How the data were processed

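Per the file headers, the authors deposited a table of average bead signal intensity per probe on 2 wild type and 2 knockout arrays, without normalization between arrays, and a detection p-value deposited beside each intensity. A second deposited table holds intensities that had been through quantile normalization in GenomeStudio according to the text of the series, and was used as an alternative. The sources used here do not say whether background was subtracted before export. Signals were corrected with normexp informed by the detection p-values (offset 16), quantile normalized and log2 transformed (neqc, limma 3.58.1, R 4.3.3). Of 45281 probes, 34885 carried 1 symbol in the platform annotation, 18 several and 10378 no symbol. Probes with detection p under 0.01 on at least 2 arrays were kept (14881), and the one with the highest mean signal stood for a gene. The genotypes were compared in limma (lmFit, eBayes) over all 10335 genes and unnamed probes, with Benjamini-Hochberg adjusted p under 0.05 as the threshold. With 2 arrays in each group, the smallest two-sided p of an exact permutation test is 0.333. The sources used here name no slide or scan date, so no batch was modelled, and precision is limited by the few arrays. The fit was tested on simulated data.

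The genes, gene lists and tests were chosen with earlier results of these data known. The rule for named genes took Anpep, every listed gene, and of each list of further pathway genes those that passed and the 3 with the smallest unadjusted p. Values per array are given for the 2 genes of each role group with the smallest unadjusted p and the gene with the smallest change. They are also given for genes not above background and for genes whose probes differ in sign. For Cltb, Pxn, Wasf2 and the further pathway genes the arrays shown were chosen after their values were seen. Gene names and neighbours come from RefSeq tables of GRCm38.p6, while the deposited files name no genome build.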

Additional observations from a re-analysis of the deposited data

How the results depend on the processing

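Under all 17 alternative settings and with every kept probe tested on its own, which was added after seeing the data, 0 of the listed genes passed. Over all genes, 10 passed, against 201 when arrays were matched by the median of all probes, 6 with no filter on dim probes (more genes tested), 4 for probes detected on all 4 arrays (fewer genes tested), 16 with an intensity trend, and 5 to 12 with single arrays left out. Median scaling over all probes shifted the median of all genes by -0.33, turned the split of 5 higher and 5 lower into 14 and 187, and gave the listed genes a median of -0.32 with 28 lower, which is 0.01 above the median of all genes. Without single arrays the median of the listed genes ran from -0.025 to 0.088, from 10 to 17 of them were lower, and 17 to 24 did not overlap between the groups, where a lone array makes overlap rarer (65.3% to 74.4% of all genes). These fits hold 3 arrays, and they take the spread of the single array of a genotype from the other genotype. For the remaining shifts the cause was not tested. Of 526 recomputed changes of single genes, 52 had the other sign, and 6 genes kept their sign throughout, namely Cltc, Ap2a1, Ap2m1, Rab5c, Arf6 and Tln1. In fits of all 4 arrays, 3 settings put listed genes under the unadjusted threshold. With median scaling over all probes these were Cav1 (-1.10) and Tln1 (-0.78), where 16.8% of all genes were under it. With the mean of the kept probes it was Actb (0.74), where 9.54% of all genes were. With the dimmest kept probe of each gene, they were Actb (1.65) and Rab7 (0.69), where 9.24% of all genes were. The arrays share replicate numbers, but nothing ties equal numbers together, and the correlation across genes of the difference between arrays 1 and 2 in wild type with that in knockout was -0.00212 over 10335 genes and -0.419 over the 31 listed genes. With the replicate number as a block, 13 genes passed in all and 0 of the listed genes.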

Other observations

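A group of caveola genes was looked at after the values were seen. Cav1 was detected on all 4 arrays, while the further caveola genes Cavin1, Cavin2 and Ehd2 were above background on 0 arrays and Cavin3 on 1. Cav2, which assembles with caveolin-1, was detected on all 4, at log2 8.91 and 9.70 in wild type against 9.55 and 8.65 in knockout. Wild type array 2 was the highest and knockout array 2 the lowest for Cav2 as for Cav1, and Cav2 had a change of -0.20 ± 0.40 (SE).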
